A study of Mus musculus with 15 samples.

Results

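The Hox cluster genes were examined in mouse liver chromatin by the position of H3K4me3 islands. They were chosen by symbol alone, as the protein-coding genes of the GENCODE M21 annotation (mm10) named Hoxa, Hoxb, Hoxc or Hoxd followed by digits, and 39 of the 21755 protein-coding genes on chromosomes 1 to 19 and X met this rule. They lie in 4 clusters, with 11 Hoxa genes on chromosome 6, 10 Hoxb genes on chromosome 11 (chr11:96194316-96368256), 9 Hoxc genes on chromosome 15 (chr15:102921103-103036852) and 9 Hoxd genes on chromosome 2 (chr2:74668310-74765142). The liver of 15 wild-type females of strain C57BL/6 (C57BL/6J in the study's methods) was profiled, with 1 library per mouse and 3 mice on each of 5 diets. The diets were a standard diet (SD), caloric restriction with a reduced amount of the same chow (CR), a high-fat diet (HF), and the standard diet with its maize replaced by powdered seed of yellow corn (YD) or of purple corn rich in anthocyanins (RD). All but CR were given ad libitum. The mice came from several litters, which the labels do not tie to single mice, and the labels give an age of 12 months, whereas the study describes a start at 3 months and 10 months of feeding. Chromatin was taken from sections of formalin-fixed, paraffin-embedded liver, a bulk tissue in which every cell type contributes.

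H3K4me3, trimethylation of lysine 4 of histone H3, marks the starts of genes that are active or poised for activity. Hox genes encode homeodomain transcription factors that give cells of the embryo their position along the body axis, and within a cluster they are ordered by paralog group, the numbered families shared by the clusters, with low-numbered genes used towards the head and high-numbered genes towards the tail. Where they are silent, Hox clusters are a classic site of Polycomb repression, while Trithorax proteins of the MLL family place H3K4me3 at Hox genes that are kept on. In adult liver the parenchymal cell, the hepatocyte, descends from anterior endoderm, whereas the stellate, endothelial and Kupffer cells around it have other embryonic origins.

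Many Hox genes start in sequence rich in CpG, the dinucleotide that draws H3K4 methyltransferases to promoters. The 4 promoters below include CpG-rich starts with an island (Hoxa5) and without one (Hoxa13 and Hoxd13). Each run holds the 250 bases before the transcription start, from the RefSeq promoter table on GRCm38.p6, in which 22 of the 39 genes were present. Capitals mark CpG, and 93.8% of the 20061 promoters of protein-coding genes in that table hold at least 1, with a median of 10. Hoxa5 (chr6:52204588-52204837, minus strand) had 28 CpGs and an island in 4 lists, and Hoxb4 (chr11:96318017-96318266, plus strand) had 14 CpGs and an island in 3. Hoxa13 (chr6:52260881-52261130, minus strand), with 35 CpGs, and Hoxd13 (chr2:74667975-74668224, plus strand), with 31, had none in any list. Hoxb2, the gene with most lists, is shown by 200 bases in the coding part of its last exon (chr11:96353136-96353335, plus strand, 30 CpGs), which is the most CpG-dense part of the stretch that its islands share in all 5 of its lists.
Hoxa5 promoter: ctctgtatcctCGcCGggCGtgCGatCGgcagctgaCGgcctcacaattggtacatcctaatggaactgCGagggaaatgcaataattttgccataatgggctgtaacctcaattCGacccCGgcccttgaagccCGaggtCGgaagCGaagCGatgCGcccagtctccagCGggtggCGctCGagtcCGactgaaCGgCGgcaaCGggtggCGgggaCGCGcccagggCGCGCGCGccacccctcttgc
Hoxb4 promoter: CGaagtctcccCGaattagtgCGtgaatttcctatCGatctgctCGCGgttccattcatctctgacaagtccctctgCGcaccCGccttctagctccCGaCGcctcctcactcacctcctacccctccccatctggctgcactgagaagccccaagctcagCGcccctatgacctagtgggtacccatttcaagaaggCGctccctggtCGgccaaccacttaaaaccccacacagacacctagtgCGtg
Hoxa13 promoter: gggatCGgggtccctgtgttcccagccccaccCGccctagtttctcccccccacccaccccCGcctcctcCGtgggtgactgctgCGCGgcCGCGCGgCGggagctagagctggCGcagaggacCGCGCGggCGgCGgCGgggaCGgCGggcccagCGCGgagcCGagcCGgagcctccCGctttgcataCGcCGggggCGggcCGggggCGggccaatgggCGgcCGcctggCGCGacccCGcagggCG
Hoxd13 promoter: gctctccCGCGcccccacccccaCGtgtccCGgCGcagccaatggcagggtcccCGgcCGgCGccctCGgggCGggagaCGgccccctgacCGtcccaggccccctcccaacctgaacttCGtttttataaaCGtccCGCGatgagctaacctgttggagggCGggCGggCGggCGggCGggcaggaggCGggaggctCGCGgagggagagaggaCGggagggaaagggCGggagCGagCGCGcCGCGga
Hoxb2 last exon: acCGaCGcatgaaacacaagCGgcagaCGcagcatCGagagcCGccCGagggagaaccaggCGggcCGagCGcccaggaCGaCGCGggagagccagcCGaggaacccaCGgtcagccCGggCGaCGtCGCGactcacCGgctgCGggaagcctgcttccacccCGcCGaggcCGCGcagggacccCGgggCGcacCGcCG

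The data are 15 lists of islands, the enriched regions that SICER2 builds from windows of 200 bp, each with a start, an end and a score. A list held 7825 to 33752 islands, and the number of reads behind it, recovered from the steps of the score, was 5589269 to 15449854. A gene was counted as marked when an island lay within 1 kb of any of its transcription start sites (TSSs), and 17.5% to 54.6% of protein-coding genes were marked per list. Read counts per island were not used here, so a gene without an island may still carry H3K4me3 below the calling threshold of its library. Hepatocyte markers (Alb, Apoa1 and Hnf4a among 10 listed genes) were marked in 6 to 10 of 10 per list, and the 4 neuronal markers in no list. Cholangiocyte markers were marked in 0 to 2 of 5 and lymphocyte markers in 0 to 1 of 4.

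H3K4me3 islands were scarce at Hox genes. Of the 39 genes, 28 (71.8%) had an island in no list, against 8711 of 21755 protein-coding genes (40.0%). No Hox gene was marked in all 15 lists, whereas 2059 protein-coding genes (9.46%) were, and the highest number of lists for a Hox gene was 5. The median was 0 lists for Hox genes and 3 for all protein-coding genes. Over all combinations of gene and library, 24 of 585 were marked. The 11 marked genes lay in the Hoxa and Hoxb clusters and included Hoxa2, Hoxa3, Hoxa4, Hoxa5, Hoxb2, Hoxb3, Hoxb4, Hoxb5, Hoxb6 and Hoxb7, as the grid of island widths shows.

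**Figure D1:**
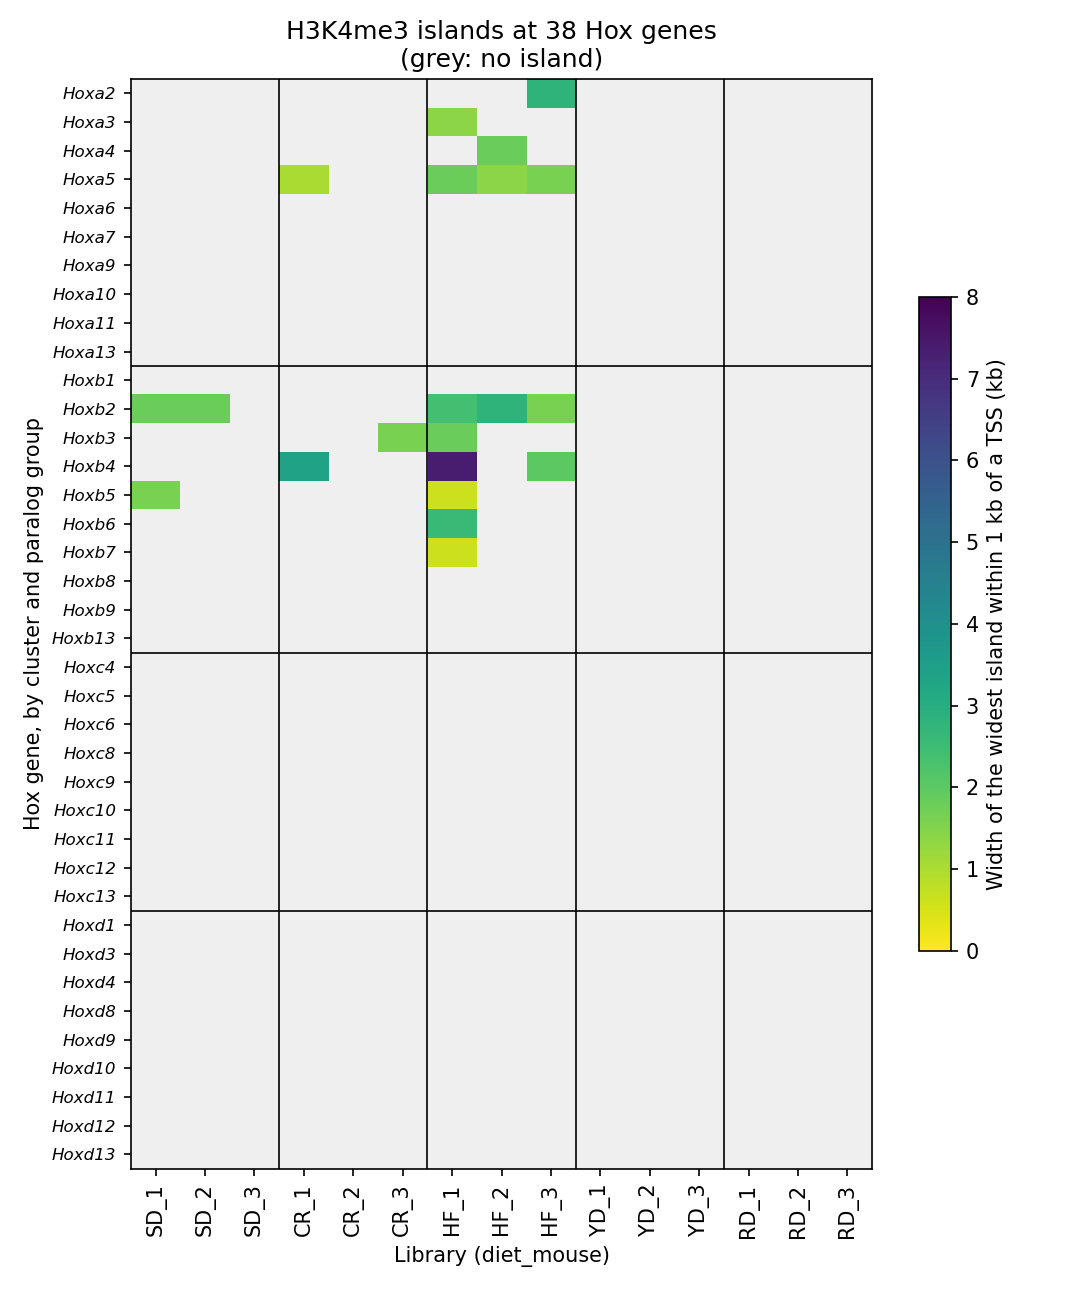
Width in kb (colour) of the widest H3K4me3 island within 1 kb of a TSS, for 38 Hox genes (vertical axis) in each of the 15 libraries (horizontal axis), with grey where there was no island. The 21 coloured cells lie in Hoxa2 to Hoxa5 and Hoxb2 to Hoxb7, with 15 of them in the 3 HF libraries and none in YD or RD.

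In the Hoxa cluster, 10 of 165 combinations of gene and library were marked. Hoxa5, which patterns the lung and axial skeleton, had an island in CR_1 (1000 bp), HF_1 (1800 bp), HF_2 (1400 bp) and HF_3 (1600 bp). All 3 HF mice and 1 of the 12 other mice were thus marked at Hoxa5, and its 4 islands shared 1000 bp just downstream of the TSS, with 81.0 CpGs per kb. Hoxa2, which acts in neural crest of the pharyngeal arches, was marked in HF_3 alone (2800 bp). Hoxa3, needed for the thymus and parathyroid, was marked in HF_1 alone (1400 bp), at the upstream TSSs of the gene. Hoxa4 had 1 island, of 1800 bp in HF_2. Further along the cluster, Hoxa6, Hoxa7, Hoxa9, Hoxa10, Hoxa11 and Hoxa13, which include a regulator of blood progenitors (Hoxa9) and regulators of the limb and reproductive tract (Hoxa10, Hoxa11 and Hoxa13), had no island in any list.

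In the Hoxb cluster, 14 of 150 combinations were marked. Hoxb2, a hindbrain patterning gene, was marked in the most lists, with islands of 1800 bp in SD_1, 1800 bp in SD_2, 2400 bp in HF_1, 2800 bp in HF_2 and 1600 bp in HF_3. These are 2 of 3 SD mice and all 3 HF mice, and no mouse of the other 3 diets. None of these islands contained a Hoxb2 TSS. They began 0.37 to 0.77 kb downstream of the nearest one, over the later part of the gene, and in 4 of 5 lists they were also within 1 kb of a TSS of the antisense RNA Hoxb3os. Hoxb4, known for its action in blood stem cells, had islands of 3400 bp in CR_1, 7400 bp in HF_1 and 2000 bp in HF_3. The island in HF_1 was the widest at any Hox gene and extended upstream over Mir10a, the microRNA gene of the cluster next to Hoxb4.

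The other marked Hoxb genes had islands in 1 or 2 lists. Hoxb3 was marked in CR_3 (1600 bp) and HF_1 (1800 bp), both times at the TSS of a noncoding transcript from inside the gene, near that of the antisense gene Gm11536. Hoxb5 was marked in SD_1 (1600 bp) and HF_1 (600 bp), both times also within 1 kb of a TSS of the antisense gene Hoxb5os, and an island has no strand, so the mark cannot be assigned to either gene. Hoxb6 (2600 bp, at its upstream TSS) and Hoxb7 (600 bp) were marked only in HF_1, among the 15 lists. HF_1 thus held islands at 6 of the 6 Hoxb genes that were marked in any list. Hoxb1, Hoxb8, Hoxb9 and Hoxb13, the last being a gene of the prostate and tail, had no island in any list.

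No gene of the Hoxc or Hoxd cluster was marked, in 135 combinations each. The unmarked Hoxc genes were Hoxc4, Hoxc5, Hoxc6, Hoxc8, Hoxc9, Hoxc10, Hoxc11, Hoxc12 and Hoxc13, the last of which is known from hair follicles. The unmarked Hoxd genes were Hoxd1, Hoxd3, Hoxd4, Hoxd8, Hoxd9, Hoxd10, Hoxd11, Hoxd12 and Hoxd13, of which the high-numbered ones pattern the limb and digits. In no list was an island closer than 35.3 kb to a Hoxd TSS, and the lowest distance to a Hoxc TSS was 2.84 kb, at Hoxc9 in SD_3. The median distance from a gene to its nearest island, over genes and lists, was 170 kb for Hoxa, 61.7 kb for Hoxb, 198.9 kb for Hoxc and 91.4 kb for Hoxd. TSSs of Hoxc5 and Hoxc10 lie 647 bp apart and those of Hoxd3 and Hoxd4 lie 2 bp apart, so an island at these TSSs would count for both genes of a pair.

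Ordered by paralog group, 11 of 20 genes in groups 1 to 7 were marked in at least 1 list, and in groups 8 to 13 none of 19. Groups 2 and 5 held the most islands, with 6 combinations each, followed by group 4 with 4. This split was seen in the data and is given as a description without a test. Neighbouring genes within a cluster share chromatin and libraries and are not independent, although each of the 24 islands was within 1 kb of the TSSs of 1 Hox gene only.

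The limit of 1 kb set some of these calls. A TSS lay inside the island in 12 of the 24 marked combinations and up to 1 kb outside it in the other 12, with Hoxb2 in SD_2 (0.77 kb) nearest to the limit. Another 6 combinations lay between 1 and 3 kb. The nearest of them were Hoxa2 in HF_1 (1.03 kb), Hoxb8 in HF_1 (1.48 kb) and Hoxb4 in YD_3 (1.87 kb). With a limit of 3 kb, Hoxb8 and Hoxc9 joined the marked genes, which then numbered 13.

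**Figure D2:**
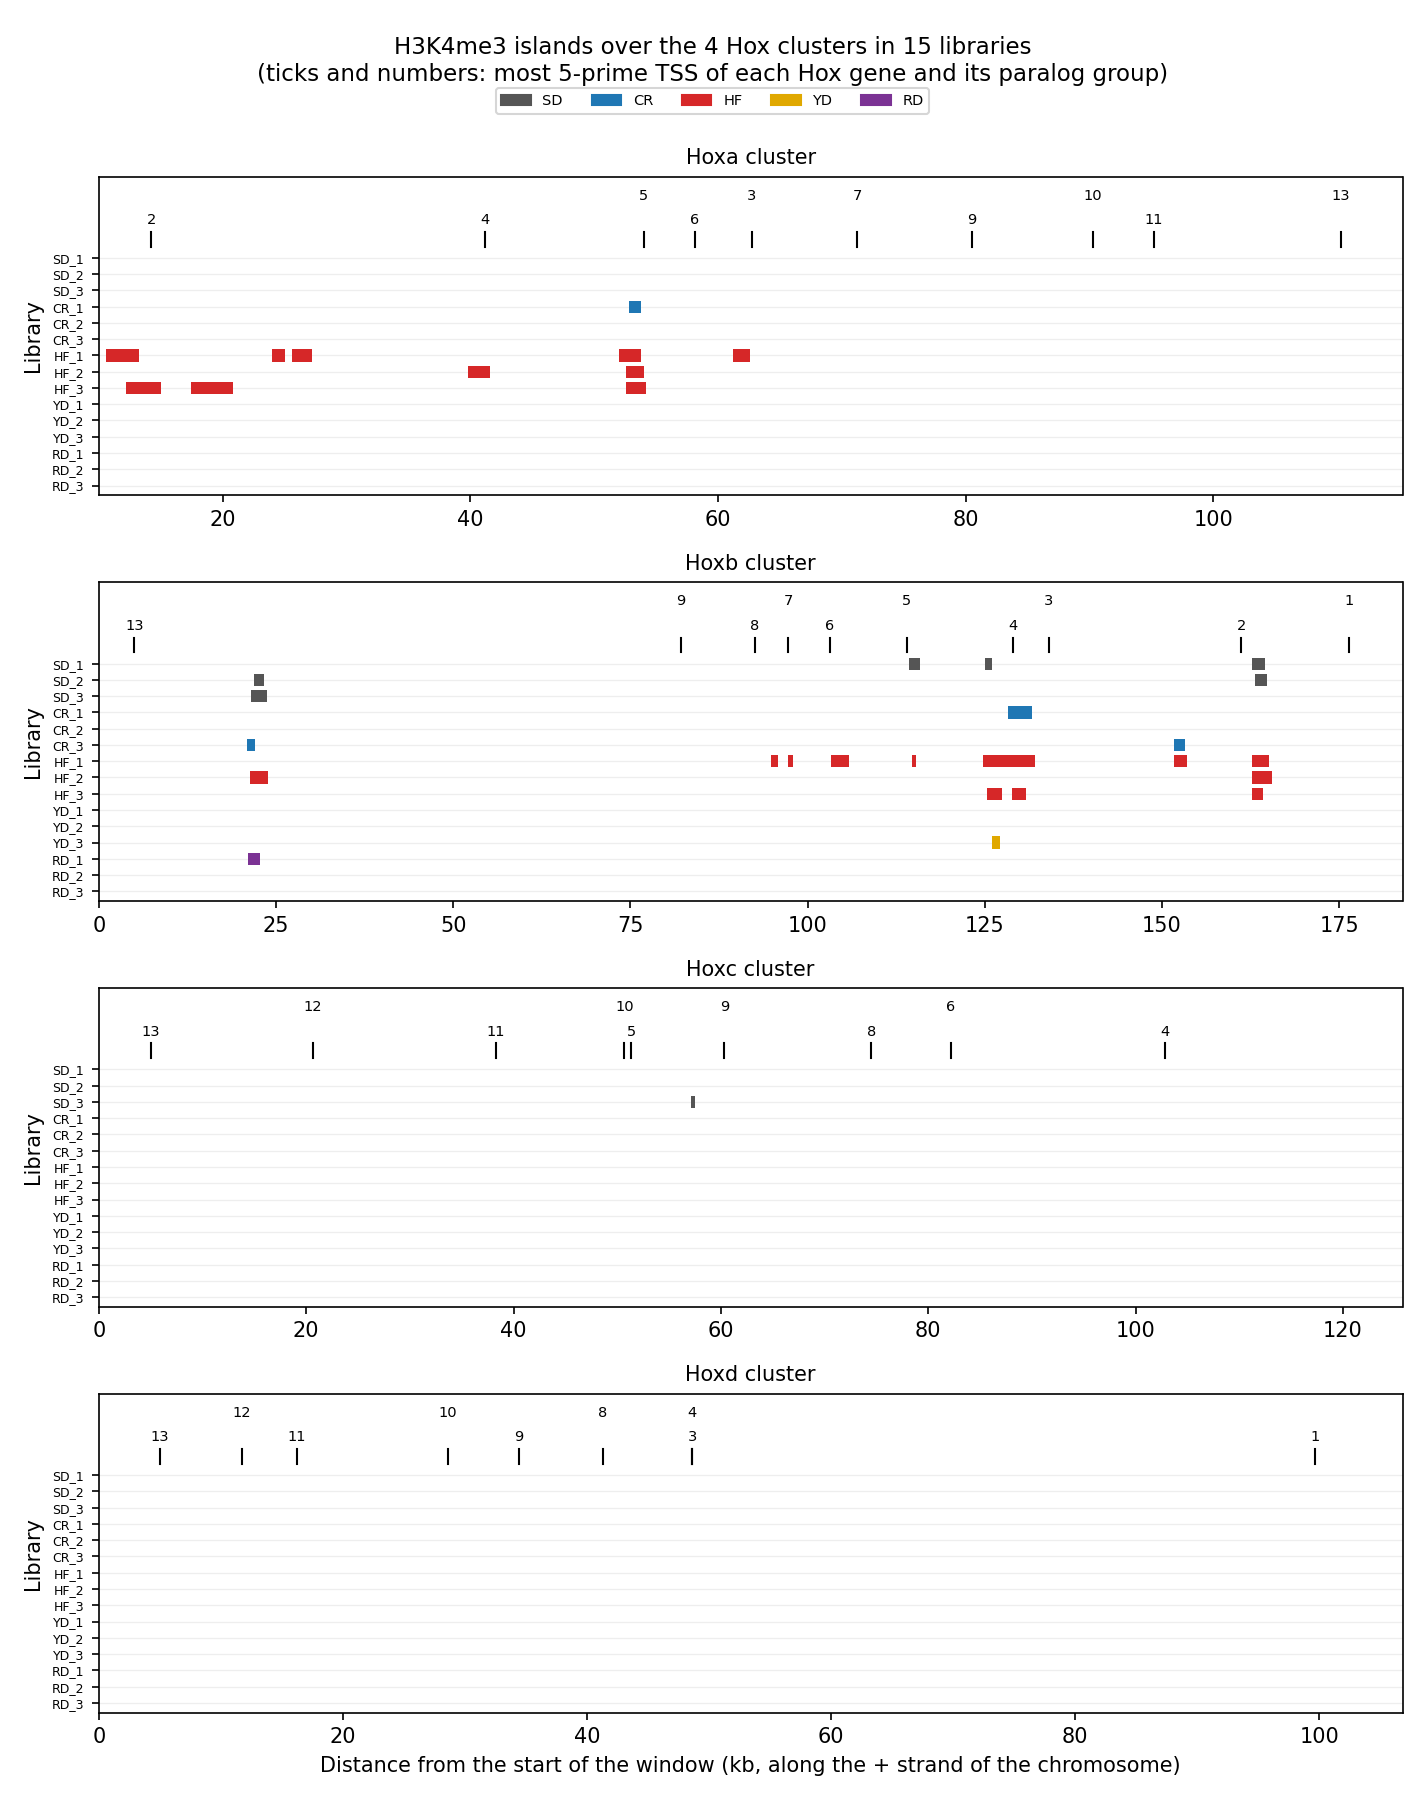
Islands (bars, coloured by diet) in the 15 libraries (vertical axis) over the 4 Hox clusters extended by 5 kb, with the distance in kb from the start of each window on the horizontal axis and numbered ticks at the most upstream TSS of each gene shown. The Hoxa panel begins 10 kb into its window. Islands gather over the low-numbered genes in Hoxa and the middle of Hoxb, 1 narrow island lies in Hoxc, and Hoxd is empty in all libraries.

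By diet, marked Hox genes were most numerous in HF. The number of Hox genes with an island was 2, 2 and 0 in SD_1 to SD_3, 2, 0 and 1 in CR_1 to CR_3, 9, 3 and 5 in HF_1 to HF_3, and 0 in each of the 6 YD and RD libraries. Every HF library thus held more marked Hox genes than any other library, of which none exceeded 2. This order rested on the islands of lower score, since with the same number of highest-scoring islands from every list (7825) HF_1 to HF_3 held 1, 0 and 0 marked Hox genes and SD_2 held 2. The mean was 5.67 ± 3.06 genes (SD, n = 3) in HF, 1.33 ± 1.15 in SD and 1 ± 1 in CR, and 0.583 ± 0.900 (n = 12) over the 12 libraries outside HF. The HF mean was 14.5% ± 7.83 of the 39 genes. In bulk liver, fewer cells of a type and less of the mark per cell cannot be told apart.

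The share of all protein-coding genes that were marked moved with diet as well. It was 47.6% to 54.6% in HF, 32.7% to 43.1% in SD, 35.5% to 48.2% in CR, 17.5% to 26.5% in YD and 27.8% to 34.7% in RD. HF_1 and HF_3 had the highest shares of all 15 libraries, and CR_3, with 48.2%, came before HF_2. CR_2 had a share of 46.5%, close to the 47.6% of HF_2, and marked 0 Hox genes against 3. The reads behind the HF lists (9749186 to 11548776) lay within the range of the other lists. Sinusoidal endothelial markers were marked in 3 to 7 of 7 genes in HF and 0 to 5 elsewhere, stellate and mesenchymal markers in 1 to 5 of 8 and 0 to 2 (Hand2 is also in the list of developmental factors below), and Kupffer cell markers in 0 to 3 of 7 and 0. HF_1, the library with the most Hox genes, also had the most of these 3 lists, at 7, 5 and 3, while Col1a1, Vsig4, Csf1r, Marco and Timd4 were marked in no library. Cholangiocyte markers were not higher in HF, with 0 to 1 of 5 against 0 to 2 elsewhere, nor were lymphocyte markers, with 0 to 1 of 4 in both. Hepatocyte markers were marked in 10 of 10 in HF and in 6 to 10 elsewhere. Library names come in 2 forms, with PATChIP in HF_2, HF_3, CR_1, CR_2 and RD_1 and plain ChIP elsewhere. Within the first form, HF had 3 and 5 marked Hox genes and the others 2, 0 and 0, and within the second form HF_1 had 9 and the others 0 to 2. The part of gene share, markers and name form in the Hox counts was not tested.

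**Figure D3:**
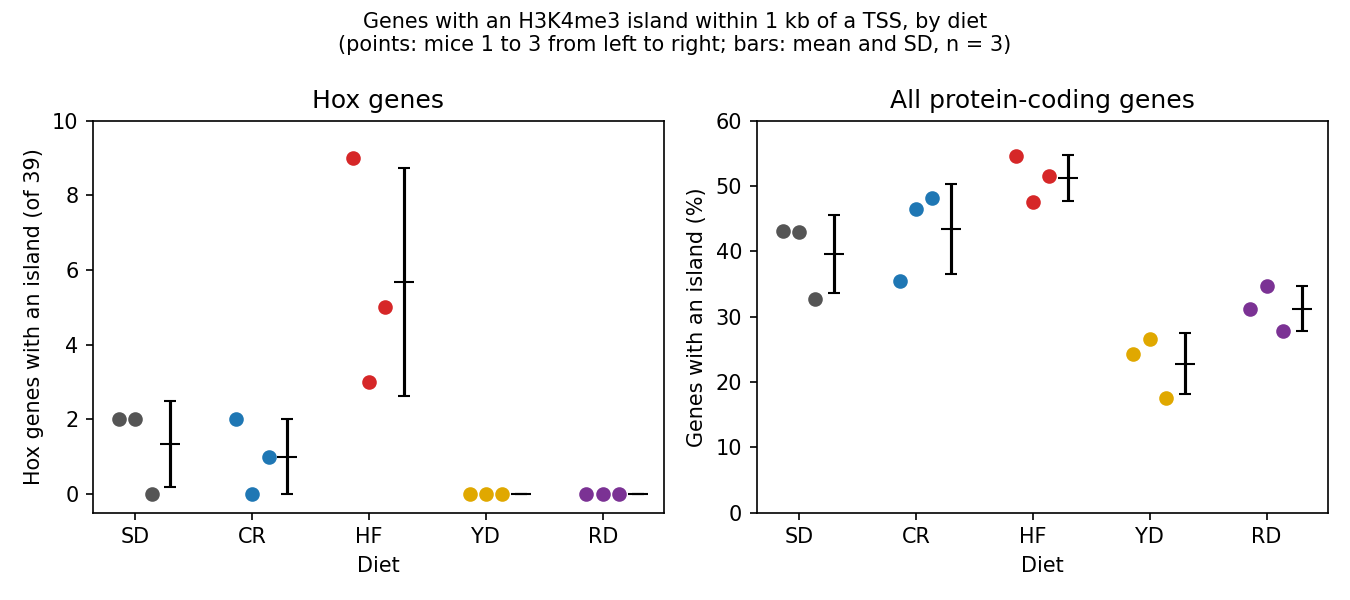
Number of Hox genes with an island (left, of 39) and share of all protein-coding genes with one in percent (right) by diet, with a point per mouse and bars for the mean and SD (n = 3). The HF mice sit at 3 to 9 Hox genes and the other mice at 0 to 2, while the shares of all genes overlap between HF and CR.

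To ask whether single Hox genes differed in HF, the presence of an island was compared between the 3 HF libraries and the other 12 by a two-sided exact permutation test for every protein-coding gene, with Benjamini-Hochberg adjustment over all 21755. No Hox gene passed an adjusted p of 0.05, and neither did any other gene. At an unadjusted p under 0.05, 2 of 39 Hox genes were higher in HF, as 5.36% of all genes tested were, and none was lower, as 0.0046% of all genes were. A gene with islands in 5 lists or fewer cannot be lower in 3 libraries at that threshold, so no Hox gene could have been. Nor can a gene marked in 1 list or none be called higher. Of the Hox genes, 28 were marked in no list and 5 in 1, against 40.0% and 5.31% of all genes, so nothing is read from the share called higher. The 2 higher Hox genes were Hoxa5, marked in 3 of 3 HF mice and 1 of 12 others (exact p = 0.00879, adjusted p = 0.768), and Hoxb2, marked in 3 of 3 and 2 of 12 (exact p = 0.0220, adjusted p = 0.768). Hoxb4 was marked in 2 of 3 HF mice and 1 of 12 others (exact p = 0.0813, adjusted p = 0.942).

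Island width, set to 0 where there was no island, was tested in the same way. Again no Hox gene and no other gene passed the adjusted threshold for HF. At an unadjusted p under 0.05, 2 Hox genes were wider in HF (19.7% of all genes) and none was narrower (0.0138% of all genes). A gene with an island in 1 list cannot reach an exact permutation p below 0.2, as at Hoxa2. A gene with no island cannot differ at all. These were 5 and 28 of the Hox genes, so nothing is read from the share called wider. Nor could any Hox gene have been called narrower, as in presence. At Hoxa5 the mean width was 1600 bp in HF and 83.3 bp elsewhere (exact permutation p = 0.00220, the smallest that 3 against 12 libraries can give, adjusted p = 0.117). At Hoxb2 it was 2267 bp and 300 bp (exact permutation p = 0.00659, adjusted p = 0.132). Hoxb4 had 3133 bp against 283 bp, with an exact permutation p of 0.0549.

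The corn diets held no marked Hox gene in 6 libraries, and 7 of the 9 libraries of the other diets held at least 1. In the exact permutation test of YD and RD together against the rest, no Hox gene was lower at an unadjusted p under 0.05 in presence, where 11.9% of all genes were, or in width, where 23.6% were. None was higher on corn either, against 0.0046% of all genes in presence and 0.0138% in width. Nothing is read from these counts for lower values, since no Hox gene was marked in more than 5 lists and even 0 of 6 mice against 5 of 9 misses the threshold in presence. No gene passed the adjusted threshold in presence. In width 183 genes (0.841%) had an adjusted p under 0.05 and a lower value on corn, with no Hox gene among them. The lowest p of a Hox gene was at Hoxb2 in both measures. It was 0.0709 for width (exact permutation test, adjusted p = 0.252), and for presence, with 0 of 6 corn mice and 5 of 9 others marked, 0.0889 (exact p, adjusted p = 0.568). In presence it was followed by Hoxa5, in 0 of 6 and 4 of 9 (exact p = 0.103, adjusted p = 0.596), and by Hoxb4, in 0 of 6 and 3 of 9 (exact p = 0.229, adjusted p = 0.864).

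The other diets, each against the remaining 12 libraries, gave no Hox gene at an unadjusted p under 0.05 in presence. Among all genes, 0.0368% were higher and 0.0414% lower in SD, 0.423% higher and 0.0046% lower in CR, 0.00919% higher and 7.27% lower in YD, and 0.0552% higher and 1.08% lower in RD. No Hox gene passed in width either, where the shares were 0.423% and 0.046% in SD, 2.24% and 0.0046% in CR, 0.00919% and 9.78% in YD, and 0.0965% and 1.39% in RD. After adjustment no gene passed in these 4 comparisons. For presence the lowest Hox p was 0.371 in this exact test, at Hoxb5 for SD (1 of 3 mice and 1 of 12 others) and at Hoxb3 for CR (also 1 of 3 and 1 of 12). For YD and RD it was 0.505 at Hoxb2 in the exact test, with 0 of 3 mice marked and 5 of 12 others, followed by Hoxa5 with 0 of 3 and 4 of 12. For width the lowest p in the exact permutation test was 0.2 at Hoxb5 for SD, 0.371 at Hoxb3 for CR, and 0.418 at Hoxb2 for YD and for RD. Here too a Hox gene could not have been called lower, whatever the share of all genes.

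Against SD, a gene was counted as gained when at least 2 of 3 mice of a diet and no SD mouse had an island, and as lost in the reverse case. Since 3 mice against 3 allow no two-sided exact p below 0.1, these counts carry no test. In HF, 2 Hox genes were gained, Hoxa5 and Hoxb4, which is 5.13% of the 39 and near the 4.69% of all genes gained, and none was lost (0.0735% of all genes). Hoxb2 was the only Hox gene lost, in CR (0.336% of all genes lost), YD (9.46%) and RD (3.92%), and the same 3 SD mice served in each of these comparisons. No Hox gene was gained in CR (1.79% of all genes), YD (0.0368%) or RD (0.221%), or differed by this rule between RD and YD, where 3.81% of all genes were gained in RD and 0.244% lost.

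The length covered by islands was also taken over whole clusters. With each cluster extended by 5 kb on both sides, the windows measured 115 kb for Hoxa, 184 kb for Hoxb, 126 kb for Hoxc and 107 kb for Hoxd. The 15 lists held 38 islands in these windows, 14 in Hoxa, 23 in Hoxb, 1 in Hoxc and 0 in Hoxd, of which 24 came from the HF libraries, 8 from SD, 4 from CR, 1 from YD and 1 from RD. They merged into 17 distinct regions, of which 5 held islands from 3 or more lists. On average islands covered 1.56% of the Hoxa window and 1.67% of the Hoxb window, and at most, in HF_1, 9.89% and 8.92%. The share of the whole genome under islands was not calculated, so these 2 shares are not read as low or high.

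The covered length was largest in HF in both marked clusters. In Hoxa it was 8.0 ± 4.28 kb (SD, n = 3) in HF, from 3.2 to 11.4 kb, and 0.25 ± 0.622 kb (n = 12) elsewhere, where 2 of 12 libraries had any. In Hoxb it was 9.2 ± 6.24 kb in HF, from 5.4 to 16.4 kb, and 1.55 ± 1.61 kb elsewhere, where 7 of 12 libraries had any and none exceeded 4.4 kb. HF and the other libraries did not overlap in either cluster, and over the 4 clusters HF_1 had 27.8 kb, HF_2 8.6 kb and HF_3 15.2 kb. Over all chromosomes, islands covered 49.8 Mb in HF_1, 44.0 Mb in HF_2 and 32.7 Mb in HF_3. These totals lay inside the range of the other lists, 15.8 Mb (YD_3) to 101 Mb (RD_2). The HF mean exceeded that of the others by 7.75 kb in Hoxa and 7.65 kb in Hoxb. With the same number of highest-scoring islands from every list the difference was 0.967 and 1.85 kb, and without HF_1 that in Hoxb was 4.05 kb. CR_2, YD_1, YD_2, RD_2 and RD_3 had no island in any window.

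Not all of these islands belonged to Hox genes. Of the 38, 24 lay at a Hox TSS, 7 at the TSS of another gene only and 7 at no annotated TSS. Mir10a was within 1 kb of an island in 4 lists, and the island of 1000 bp in YD_3 near it was the only YD island in the 4 windows. In SD_3 an island of 400 bp lay over Mir196a-2 in the Hoxc cluster (chr15:102973201-102973600), with a score above that of 99.6% of its list and no counterpart in any other library. Hoxaas2 and Hoxaas3, transcribed antisense to Hoxa genes, had islands away from Hox TSSs in HF_3 and HF_1. In all, 50 further annotated genes start in the windows, 47 of them not protein-coding, and 14 had an island in any list (9 of 24 in Hoxa, 4 of 9 in Hoxb, 1 of 7 in Hoxc and 0 of 10 in Hoxd). Of these 14, 8 had an island away from Hox TSSs (6 in Hoxa, 1 in Hoxb and 1 in Hoxc), and the rest only shared islands counted for a Hox gene.

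Where Hox genes had an island, it was of low score within its list. The median width was 1800 bp (600 to 7400 bp) over the 24 combinations and 2000 bp over the 122861 combinations of all protein-coding genes. Within lists, the Hox median was below that of all protein-coding genes in HF_1 (1800 against 2600 bp), HF_3 (1600 against 2400 bp), SD_1 (1700 against 2000 bp) and CR_3 (1600 against 2000 bp). It was equal in HF_2 (1800 bp) and above in SD_2 (1900 against 1800 bp) and CR_1 (2200 against 2000 bp). HF_1 and HF_3 held 9 and 5 of the combinations. The score was compared as a percentile within its list, since scores are not scaled between libraries. The median percentile was 38.2 (4.37 to 80.9) for Hox genes and 72.3 for all protein-coding genes, and 16.7% of Hox combinations (4 of 24) against 75.8% of all reached the median score of the list they came from. They included Hoxb4 in HF_1 (80.9) and CR_1 (62.5) and Hoxb2 in SD_1 (52.7). Hoxb2 lay at 41.1 to 52.7 in its 5 lists, while Hoxa5 lay at 47.5 in HF_1 and at 6.77 to 17.3 in the other 3. Hoxb3, at 4.37 and 10.3, was near the bottom of both its lists.

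**Figure D4:**
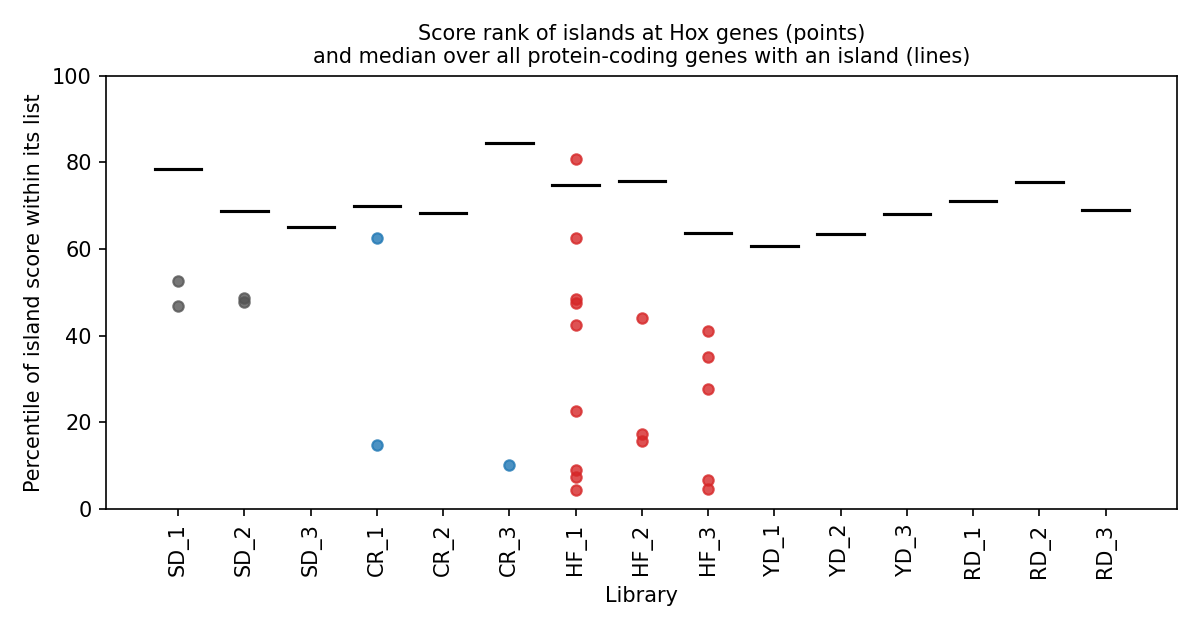
Percentile of the island score within its own list (vertical axis) for each marked Hox gene (points, coloured by diet) in the 15 libraries (horizontal axis), with a line at the median of all marked protein-coding genes of that library. Of the 24 points, 1 lies above its line, Hoxb4 in HF_1 at 80.9.

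CpG-rich starts were found among both marked and unmarked Hox genes. Taking 500 bp on each side of the most upstream TSS, 25 of 39 Hox genes (64.1%) had an observed over expected CpG ratio of at least 0.6, against 46.3% of all protein-coding genes. By this measure 10075 protein-coding genes were CpG-rich, and they were marked in a median of 11 lists, with 1369 (13.6%) in none. Of the Hox genes marked at any TSS 7 of 11 (63.6%) and of the unmarked 18 of 28 (64.3%) were CpG-rich. At the most upstream TSS itself, where CpG was measured, 9 Hox genes were marked. Hoxb2 (ratio 0.181) and Hoxb3 (0.329), neither CpG-rich, were not among them, so the 2 shares do not compare marked with unmarked starts. Hoxa13 (ratio 0.931) and Hoxd13 (0.899), both unmarked, exceeded 9 or more of the 11 marked Hox genes. Hoxa5 had the highest ratio of the 39, at 0.995, and Hoxb2, the gene with most lists, had the lowest, at 0.181 around its most upstream TSS. The 4 windows held 20.5 to 28.9 CpGs per kb and flanks of the same length 7.10 to 13.5. Among libraries, 28.7% to 83.6% of CpG-rich protein-coding genes were marked, and 0% to 20% of the 25 CpG-rich Hox genes.

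**Figure D5:**
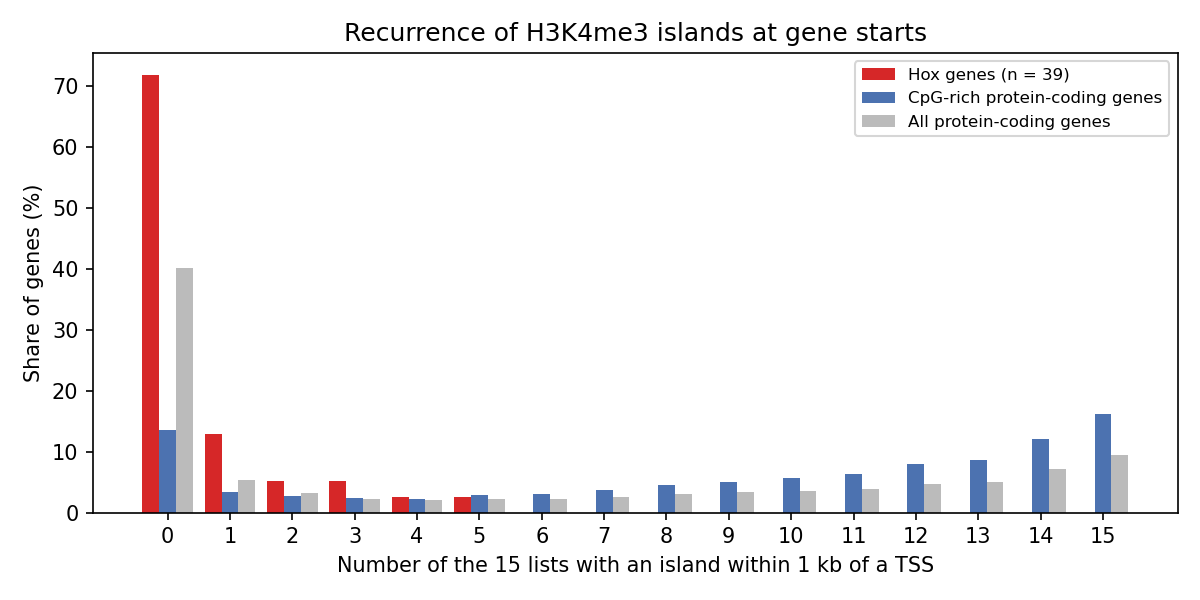
Share of genes in percent (vertical axis) by the number of the 15 lists with an island within 1 kb of a TSS (horizontal axis), for the 39 Hox genes, the 10075 CpG-rich protein-coding genes and all 21755 protein-coding genes. Hox genes stop at 5 lists with 71.8% at 0, whereas 13.6% of CpG-rich genes are at 0 and 16.2% are at 15.

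The genes flanking the clusters divided into marked and unmarked ones. Skap2, beside Hoxa, was marked in 13 lists, Mtx2 (60.7 kb from Hoxd1) in 13, Calcoco1 (198.9 kb from Hoxc13) in 12 and Smug1 (116 kb from Hoxc4) in 9. The homeobox genes Evx1 (52.6 kb from Hoxa13) and Evx2 (8.75 kb from Hoxd13), which share the ancestry of the clusters, were marked in none, and neither were Ttll6 (28.9 kb from Hoxb13) and Skap1 (96.3 kb from Hoxb1). Flanks of the length of the window held an island in 12 and 13 lists beside Hoxd and in all 15 on the Hoxb13 side of Hoxb, but in 1 on its Hoxb1 side. Beside Hoxc they did so in 0 lists on the Hoxc13 side and 9 on the Hoxc4 side. The flanks of Hoxa had islands in 0 lists and 1 list, and on average 0% and 0.0578% of them was covered, below the 1.56% of the Hoxa window. The other clusters each had a flank that was covered more than the window. For Hoxb the flanks had 2.86% (Hoxb13 side) and 0.0362%, against 1.67% in the window. For Hoxc they had 0% and 0.679% (Hoxc4 side) against 0.0212%, and for Hoxd 1.88% and 1.30% against 0%.

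Gene lists from the same field of biology were set beside the Hox genes as counts. The ParaHox and caudal list (Gsx1, Gsx2, Pdx1, Cdx1, Cdx2, Cdx4, Evx1 and Evx2) was unmarked in all 15 lists, 8 of 8 genes. Of 70 other developmental transcription factors, including Pax, Lhx, Tbx and Dlx genes, 53 (75.7%) were marked in no list, and the mean share marked was 11.9% ± 4.36 (SD, n = 3) in HF, 8.10% ± 4.12 in SD, 5.71% ± 1.43 in CR, 3.33% ± 0.825 in YD and 4.76% ± 0.825 in RD. The regulators of Hox genes and Hox partners were marked far more often. The 9 cofactors of the Pbx, Meis and Pknox families, which bind DNA together with Hox proteins, had a mean share of 85.2% in HF, 70.4% in CR, 51.9% in both SD and RD and 25.9% in YD, and all 9 were marked in at least 1 list. The 29 Polycomb genes, all marked in at least 1 list, had 93.1% in HF, 77% in CR, 66.7% in SD, 54.0% in RD and 28.7% in YD. The 10 Trithorax genes and H3K27 demethylases, 1 of them in no list, had 86.7% in CR, 83.3% in HF, 76.7% in SD, 73.3% in RD and 50% in YD. No gene of these 5 lists had an adjusted p under 0.05 for HF or for both corn diets in the exact permutation test of presence. At an unadjusted p under 0.05, 3 of 29 Polycomb genes, 3 of 70 developmental factors and 1 of 9 cofactors were higher in HF, where 5.36% of all genes were. On corn 8 of 29 Polycomb genes, 1 of 9 cofactors and 1 of 10 Trithorax or demethylase genes were lower, where 11.9% of all genes were.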

How the data were processed

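H3K4me3 islands of 15 liver libraries were analysed, with the diet and replicate number of each mouse taken from the labels. Single-end reads (50 bp) had been mapped to mm10 by the authors with bwa and filtered with samtools for mapping quality, duplicates and standard chromosomes (1 to 19, X), and islands had been called per library with SICER2 (fragment and window of 200 bp, gap of 400 bp, FDR under 0.05). The deposited score of an island adds up the Poisson surprise of its enriched windows (a negative natural log of the probability) and was used only within a list. The reads behind a list were recovered from the scores of islands of 1 window at an effective genome fraction of 0.74, and came within 0.00046 of a whole number in all 15 lists. The depth behind single islands was not used here, so errors are between mice and no counting interval is given.

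Islands were joined to GENCODE M21 TSSs with pandas 2.3.3, numpy 2.4.6 and scipy 1.17.1 under Python 3.11.15. Presence and width were compared by two-sided exact permutation tests over libraries for all 21755 protein-coding genes (455 arrangements for 3 against 12 libraries, 5005 for 6 against 9), with a threshold of 0.05 on the Benjamini-Hochberg adjusted p. The calculations were tested on simulated data. Promoter sequences and CpG content came from RefSeq and GRCm38.p6, which has the coordinates of mm10. The Hox genes, the gene lists and the tests were chosen with earlier results of these data known. All Hox genes were counted in the totals, the single values of 1 are not reported here, and those named with values were the members marked in few lists, with the lowest p per contrast, gained or lost against SD, or at the ends of a cluster, plus the flanking genes. Median widths over the 15 lists were 0 for every Hox gene and named none. Alternatives changed the islands kept, the distance to the TSS, the TSSs used, the mice, the window, the gain rule, the name form and the replicate block. No 2 lists held identical islands. Mice with the same replicate number are different animals, and their deviations from the diet means had a mean correlation of -0.00222 (-0.0891 to 0.0947).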

Additional observations from a re-analysis of the deposited data

How the results depend on the processing

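The higher number of marked Hox genes in HF rested on islands of low score. The difference between HF and the other diets in marked Hox genes per library (5.08) became 0.0833 with the same number of highest-scoring islands from every list (7825) and 0.5 with only the islands that reached the median score of a list. Both settings put the difference between corn and the other diets at -0.444 (reported -2.67), the Hox genes at an unadjusted p under 0.05 for HF at 0 in presence and width, gains in HF and losses in CR, YD and RD at 0, and Hoxb2 presence in HF minus the rest at -0.0833, the reverse of the reported sign (0.833). The HF difference in covered length fell to 0.967 and 1 kb in Hoxa (reported 7.75) and to 1.85 and 2.9 kb in Hoxb (7.65), and the median-score setting by construction raised the median percentile to 62.5, with a median width of 3200 bp. Hoxb2 and Hoxb4 were marked in both settings. Hoxb2 was marked in only 1 library in each of them, outside HF, so its reversed sign rests on a single library and is not read.

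With the TSS required inside the island the HF difference was 3.17, with 1 Hox gene at an unadjusted p under 0.05 in presence and 1 in width. The most upstream TSS alone also gave 1 and 1, and neither setting counted Hoxb2 as lost in CR, YD or RD (0). A limit of 3 kb counted 1 gain in CR, and an island in all 3 mice 1 gain in HF and 0 losses in CR, YD and RD. With only the 10 libraries of the ChIP name form (CR_1, CR_2, HF_2, HF_3 and RD_1 have the other), HF_1 was the lone HF library, the difference was 8.44, the covered lengths 11.2 and 14.9 kb, and gains in HF and Hox genes at an unadjusted p under 0.05 numbered 0.

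Leaving out each mouse in turn, the HF difference ranged from 3.42 (without HF_1) to 6.42 and that of corn from -3 to -1.88. Hox genes at an unadjusted p under 0.05 for HF numbered 1 (without HF_1 or HF_3) to 3 in presence and 2 to 4 (without HF_2) in width. For both corn diets they numbered 0 to 1 in each, with 1 without SD_3 or any CR mouse. Genes gained in HF numbered 1 (without HF_1 or HF_3) to 3, and Hoxb2 was not lost without SD_1 or SD_2, a range of 0 to 1 in CR, YD and RD. The covered length in HF exceeded that elsewhere by 6.05 to 10.2 kb in Hoxa (highest without HF_2) and 4.05 (without HF_1) to 9.55 kb in Hoxb, and differed by -0.0364 to 0 kb in Hoxc. The median percentile ranged from 31.4 to 44.2. For HF and for both corn diets, Hox genes past the adjusted threshold numbered 0 in every setting run. The replicate block gave 2 Hox genes at an unadjusted p under 0.05 for HF in presence and 3 in width, with 0 after adjustment. Since the numbers do not pair the mice, 4 of 15 libraries correlating best with their own number, no weight was given to the block, which changed no other count. Adjusting over genes with an island in at least 2 libraries, an alternative chosen after seeing the data, also gave 0 Hox genes.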

Other observations

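In the Hoxb window, 3 merged regions held islands from 5 lists each, at Hoxb2, over Mir10a and Hoxb4, and at a place with no gene start. The islands merged into the region over Mir10a and Hoxb4 shared no base in all 5 lists. They were joined through the island of 7400 bp in HF_1, and those of SD_1, CR_1 and YD_3 did not overlap one another. The SD_1 island itself had no TSS within 1 kb. The place with no gene start lay between Hoxb13 and Hoxb9. Islands of 1200 to 2600 bp in SD_2, SD_3, CR_3, HF_2 and RD_1 merged there into chr11:96210201-96213200. The nearest Hox TSS, that of Hoxb13, was 15.9 kb or more away, and the score percentiles were 14.5 to 54.8. The 200 bp that all 5 lists shared (chr11:96211201-96211400, plus strand, GRCm38.p6, CpG in capitals) held 10 CpGs per kb and were 68% repeat-masked in the RefSeq genome sequence, against 69.2 CpGs per kb and 9.08% over the 1200 bp shared by the 5 islands at Hoxb2. The stretch is shown to be set beside the Hoxb2 exon above.
Region between Hoxb13 and Hoxb9: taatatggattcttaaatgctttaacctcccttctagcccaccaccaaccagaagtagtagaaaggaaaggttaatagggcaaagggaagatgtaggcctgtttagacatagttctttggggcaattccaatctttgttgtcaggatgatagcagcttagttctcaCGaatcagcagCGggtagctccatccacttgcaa
Of the lists with this region, SD_2 and HF_2 also had the island at Hoxb2. RD_1 had its only island of the 4 windows there.

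Inside the windows lie the microRNA genes Mir10a and Mir196a-1 (Hoxb), Mir10b (Hoxd), Mir196b (Hoxa), and Mir196a-2 and Mir615 (Hoxc), of which several are known to repress Hox messenger RNAs. Mir10a was marked in 4 lists and Mir196a-2 in 1, and the other 4 in none. The long noncoding RNA genes Hotair (Hoxc) and Hottip (Hoxa) were also marked in no list.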
